A study of Anas platyrhynchos with 11 samples.

Results

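The genes described here are carriers of the solute carrier (SLC) superfamily that move ions, amino acids and neurotransmitters across membranes. They were taken by gene name, as every gene of the deposited table in families SLC1, SLC4, SLC6, SLC8, SLC9, SLC12, SLC17, SLC18, SLC24 and SLC32. This gave 59 of 16823 genes in 10 families, and the choice was made with earlier results of these data known. RNA was sequenced in bulk from 5 libraries of Meissner corpuscles, touch end organs in which lamellar cells surround a sensory axon, and from 6 libraries of bill skin without corpuscles, all from the duck (Anas platyrhynchos). Each corpuscle library pooled 2 to 10 end organs drawn into a glass pipette; the labels give no strain, age, sex or treatment for either tissue. Corpuscle libraries were made with a low-input kit and skin libraries with an ordinary poly(A) RNA kit, and the effects of tissue and of kit cannot be told apart anywhere below. Libraries came from 3 skin isolations that the labels do not tie to single libraries, so p-values measure the spread between these libraries, which may be partly technical.

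Many carriers of these families in the plasma membrane use gradients that the sodium pump sets up. SLC1 and SLC6 carriers clear glutamate, GABA, glycine and amines and take up amino acids, taurine and creatine. SLC17, SLC18 and SLC32 carriers fill synaptic vesicles. SLC12 carriers set the chloride level of a cell, which decides whether GABA inhibits it, while SLC4 and SLC9 carriers set its pH and SLC8 and SLC24 carriers export calcium. The roles given below are those known from mammals.

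Total counts ran from 5766279 to 11886808 in corpuscles and from 13263776 to 20925841 in skin. Of 9 Merkel cell markers tested, 8 rose in corpuscles and 0 fell. Their summed level was 14629 to 79592 CPM in corpuscles and 1232 to 2503 CPM in skin (CPM, counts scaled to library size). Most of that sum was CHGB, which averaged 41726 CPM (corpuscles) and 1286 CPM (skin). PIEZO2, the marker not called, averaged 279 CPM (corpuscles) and 365 CPM (skin). Of 7 Schwann cell and glial markers tested 0 rose and 3 fell by edgeR's quasi-likelihood test, the glial factor SOX10 averaging 241 CPM (corpuscles) and 153 CPM (skin) and S100B being listed at 0 in both. Of 9 endothelial markers 8 fell, with sums of 45.2 to 128 CPM in corpuscles and 1095 to 1529 CPM in skin. Corpuscles 4 and 5 lay apart from corpuscles 1 to 3 on the second principal component, with scores of -124 and -35.5 against 53.2 to 59.5. In bulk RNA, fewer cells of a type and less RNA per cell cannot be told apart.

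Genes of unrelated organs were also measured, because low signals differed between the tissues. The 52 such genes found (those typical of germ cells, pituitary, retina or liver) had a median of 1.32 FPKM (a level per length of gene and per library size) in corpuscles and 0.0881 FPKM in skin. Their 95th percentile in corpuscles was 5.03 FPKM. Of the 41 that could be tested, 33 were called higher in corpuscles and 0 lower. By library their median was 0.749, 0.779, 1.01, 2.11 and 1.14 FPKM in corpuscles 1 to 5, against 0.0651 to 0.116 FPKM in skin, so corpuscle 4 was the highest of all.

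The leading carriers differed in order between corpuscles and skin. The most abundant carriers in corpuscles were SLC6A14 (35.3 ± 16.9 FPKM), which takes up neutral and cationic amino acids, the melanosomal exchanger SLC24A5 (30.6 ± 14.8 FPKM), the sodium-bicarbonate cotransporter SLC4A7 (30.1 ± 9.36 FPKM), the taurine carrier SLC6A6 (26.5 ± 18.3 FPKM) and the potassium-chloride cotransporter SLC12A4 (12.4 ± 7.95 FPKM; SD, n = 5). In skin SLC6A6 led (45.1 ± 6.44 FPKM), followed by the creatine carrier SLC6A8 (29.2 ± 5.47 FPKM), SLC12A4 (28.9 ± 3.19 FPKM), the sodium-potassium-chloride cotransporter SLC12A2 (24.6 ± 3.27 FPKM) and the neutral amino acid exchanger SLC1A4 (21.5 ± 4.41 FPKM; SD, n = 6). The first 4 in corpuscles lay within their spread of each other, and so did SLC6A8, SLC12A4 and SLC12A2 in skin. Most carriers were low: 37 of 59 lay under 2 FPKM in corpuscles and 32 of 59 in skin. Summed over the members, the level per library averaged 256 FPKM in corpuscles and 295 FPKM in skin.

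**Figure D1:**
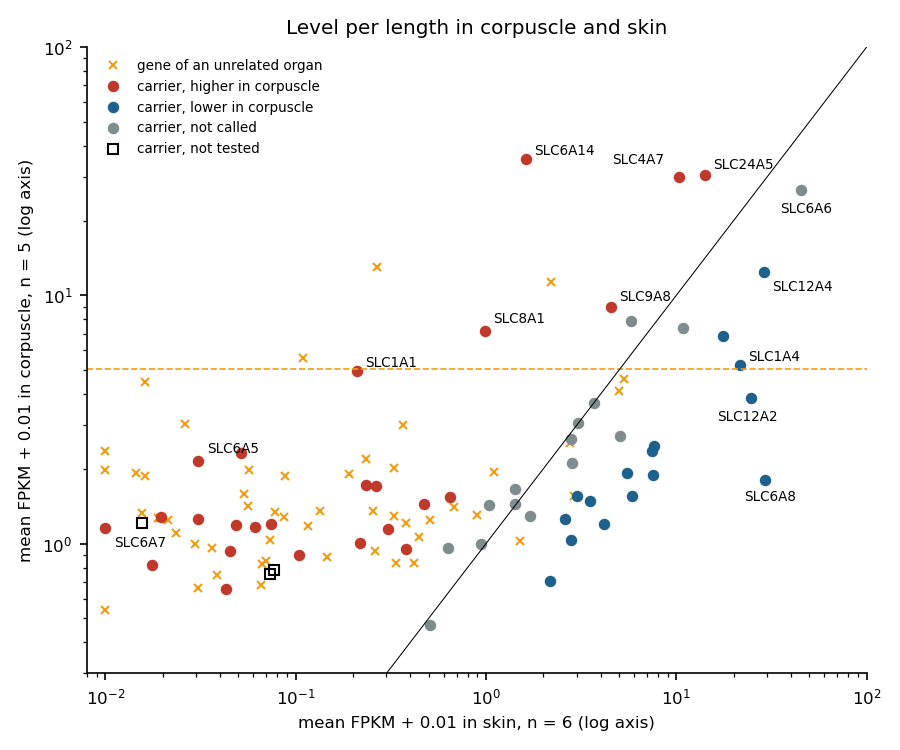
Mean FPKM plus 0.01 of each carrier in corpuscles (vertical, n = 5) against skin (horizontal, n = 6), both on log axes; circles are carriers tested, squares carriers not tested, crosses genes of unrelated organs, the solid line equality and the dashed line the 95th percentile of the crosses in corpuscles (5.03 FPKM). Of the carriers called higher in corpuscles 5 lie above the dashed line, and the other 20 lie at the height of the crosses.

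Of the 59 carriers 56 passed the filter on low counts. By edgeR's quasi-likelihood test at a Benjamini-Hochberg adjusted p of 0.05 over all genes, 25 were higher and 16 lower in corpuscles, and 15 did not pass. Beyond a 4-fold change, 19 of the 56 were higher and 2 (SLC6A8 and SLC12A2) lower, where all genes gave 18.1% and 6.39%. Over all 14638 genes tested, 33.0% were called higher and 23.5% lower, in all 56.4%. Among carriers tested these shares were 44.6%, 28.6% and 73.2%. The median log2 fold change (corpuscle minus skin) was 0.41 over the 56 carriers, also with SLC6A7 (at 0 in skin) at its bound, and 0.18 over all genes. Libraries of the tissues did not overlap in 33 of the 56 (58.9%), against 41.3% of all genes. Of the 25 called higher, 16 had under 1 CPM in skin, so these passed the filter only through their level in corpuscles. They were SLC1A1, SLC1A7, SLC4A9, SLC6A5, SLC6A7, SLC6A12, SLC6A13, SLC6A20, SLC9A2, SLC9A3, SLC9A4, SLC12A1, SLC17A6, SLC17A8, SLC18A1 and SLC32A1. All 16 were among the 19 higher beyond 4-fold and among the 33 without overlap. The counts and shares of carriers called higher, higher beyond 4-fold and without overlap thus partly follow from the filter. The p-values of these 16 carriers below are no independent support for a rise. The authors' deposited table, which has no such filter, gave the same call to 56 of the 59 and called the 3 others higher in corpuscles. It was made from the same counts and also with edgeR, so this match is no independent support.

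The level of unrelated genes divided the carriers that were higher in corpuscles. Above its 95th percentile in corpuscles lay 5 of the 25: SLC4A7, SLC6A14, SLC8A1, SLC9A8 and SLC24A5. The other 20 lay between 0.649 FPKM (SLC9A2) and 4.93 FPKM (SLC1A1), with a median of 1.19 FPKM, and 14 of the 20 were highest in corpuscle 4. None of the 5 was highest in corpuscle 4. Corpuscle 4 was also the highest corpuscle library for 8 of the 16 lower carriers and for 29 of all 59 carriers. When the median level of unrelated genes, scaled by gene length, was subtracted from each library (an alternative added after the data were seen), 4 carriers kept their call as higher: SLC4A7, SLC6A14, SLC8A1 and SLC24A5. After the same subtraction 2 of 19 unrelated genes tested were still called higher, and 2375 of all 12765 genes tested, so the call alone does not set a carrier apart from unrelated genes. Of the other 21, 6 were tested and not called, and 15 no longer passed the filter. All 16 lower carriers were still tested and 10 of them stayed called; SLC18A2 (-3.11, adjusted p = 0.0387) and SLC24A4 (adjusted p = 0.000391) were newly called lower, which made 12. Of the lower carriers, 13 of 16 lay above the 95th percentile of unrelated genes in skin (2.80 FPKM).

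**Figure D2:**
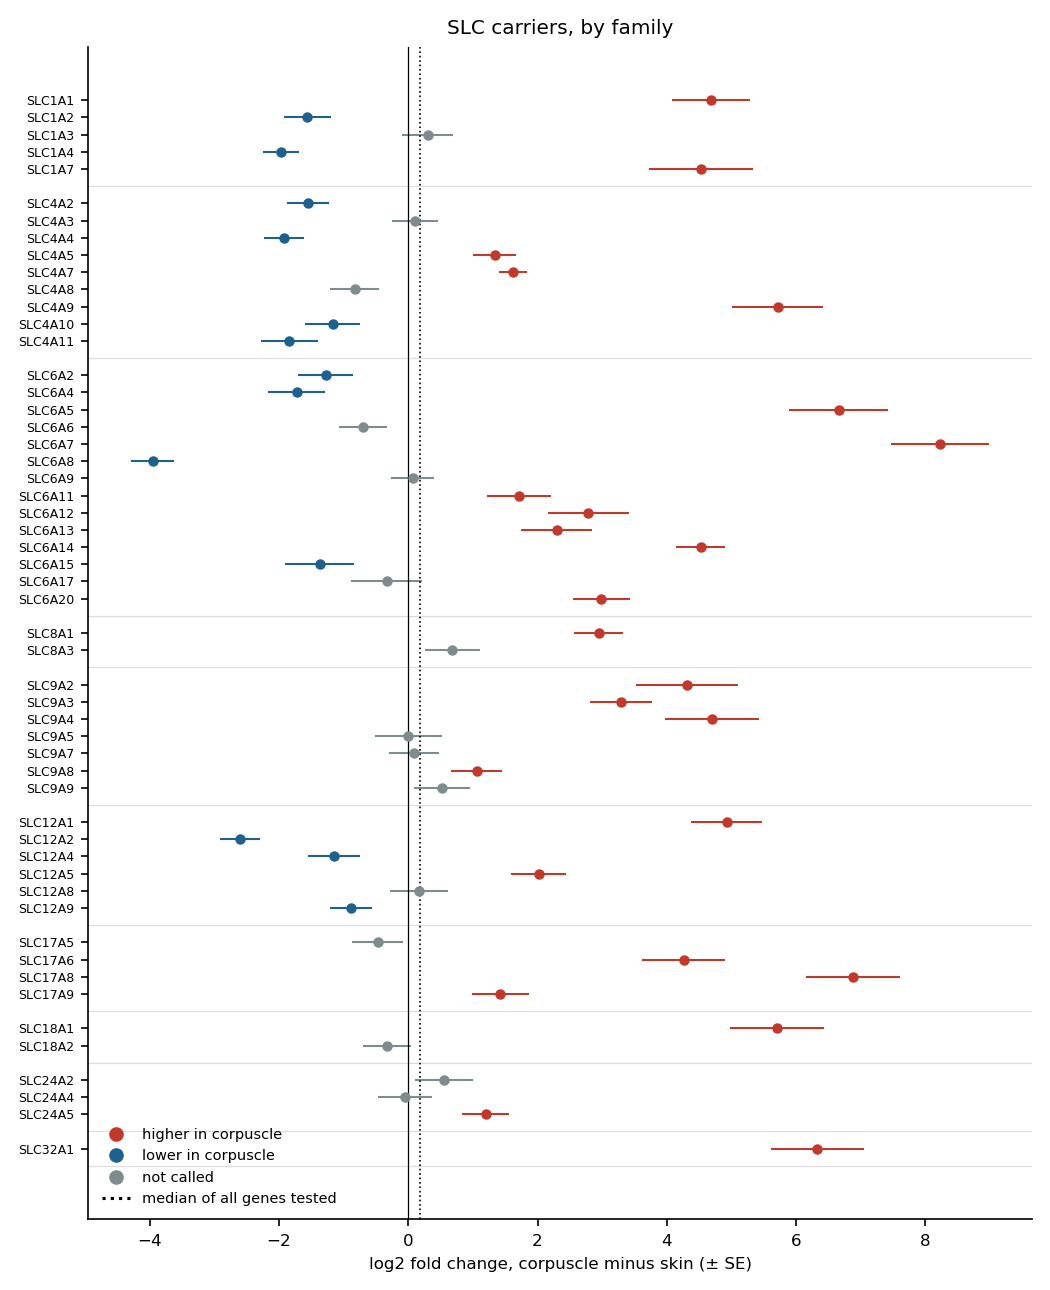
Log2 fold change (corpuscle minus skin, with SE bars) of 53 of the 56 carriers tested, grouped by family. Red is higher in corpuscles (25), blue lower (13 of the 16 called lower) and grey not called (15). The dotted line is the median of all genes tested (0.18). Among the carriers drawn, families SLC1, SLC4, SLC6 and SLC12 hold members called in both directions, the lowest being SLC6A8 at -3.95. SLC6A7, with the highest value, has 0 reads in skin, so its place is no measure of its fold.

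Vesicular carriers were low in corpuscles and in skin near 0, save SLC17A5, SLC17A9 and SLC18A2. SLC17A6, a vesicular glutamate carrier of excitatory neurons, was at 7.46, 4.24, 4.54, 6.82 and 2.97 CPM in corpuscles 1 to 5, against a lowest, median and highest value of 0, 0.277 and 0.521 CPM in skin. Its log2 fold change was 4.26 ± 0.64 (SE; adjusted p = 4.87e-05) and the tissues did not overlap. SLC17A8, the vesicular glutamate carrier of hair cells and of some amine neurons, was at 1.60, 6.59, 2.41, 6.18 and 7.48 CPM in corpuscles. Skin gave 3 reads of it in all, so the pooled ratio was 151 with a 95% exact counting interval of 51.1 to 738, which covers counting error only (adjusted p = 2.48e-06). Both carriers lay at the level of unrelated genes, SLC17A6 at 1.19 and SLC17A8 at 1.28 FPKM in corpuscles. Both entered the test only through their level in corpuscles.

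The carriers that load inhibitory transmitters and amines were at the same low level. SLC32A1, which loads GABA and glycine, was at 2.04, 1.98, 2.69, 3.65 and 1.89 CPM in corpuscles, against 2 reads over all skin libraries, both in skin 6. The pooled ratio was 112 with a counting interval of 30.4 to 939 (adjusted p = 4.58e-06), and the fitted log2 fold change of 6.33 became 8.00 without skin 6. SLC18A1, the amine carrier of endocrine cells, was at 2.04, 1.32, 2.13, 5.07 and 5.40 CPM in corpuscles, against 5 reads over all skin libraries. Its log2 fold change was 5.71 ± 0.73 (adjusted p = 1.22e-05) and 6.56 without skin 3. SLC32A1 and SLC18A1 also entered the test only through their level in corpuscles. SLC18A2, the amine carrier of neurons, was at 2.22, 4.05, 3.90, 7.29 and 3.60 CPM in corpuscles and at 3.62, 5.15 and 7.18 CPM (lowest, median, highest) in skin, and the tissues overlapped (-0.32 ± 0.37, adjusted p = 0.482). SLC17A9, which loads ATP, was called higher (1.43 ± 0.44, adjusted p = 0.0118) with overlap, but it missed the threshold (0.79, adjusted p = 0.228) when the 4 libraries with the lowest scores on the second principal component, corpuscles 4 and 5 and skin 5 and 6, were left out. After subtraction of the level of unrelated genes its value turned to -3.00 (adjusted p = 0.0748). SLC18A3, which loads acetylcholine, was not tested, at 0.71 to 4.44 CPM in corpuscles and at most 0.397 CPM in skin. The lysosomal sialic acid exporter SLC17A5 was the most abundant of its family, at 14.6, 49.4, 7.14, 25.2 and 23.5 CPM in corpuscles and 29.0, 32.4 and 38.2 CPM in skin. The tissues overlapped in it and it did not pass (-0.48 ± 0.39, adjusted p = 0.321), though it did without corpuscle 2 (-0.93, adjusted p = 0.033).

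**Figure D3:**
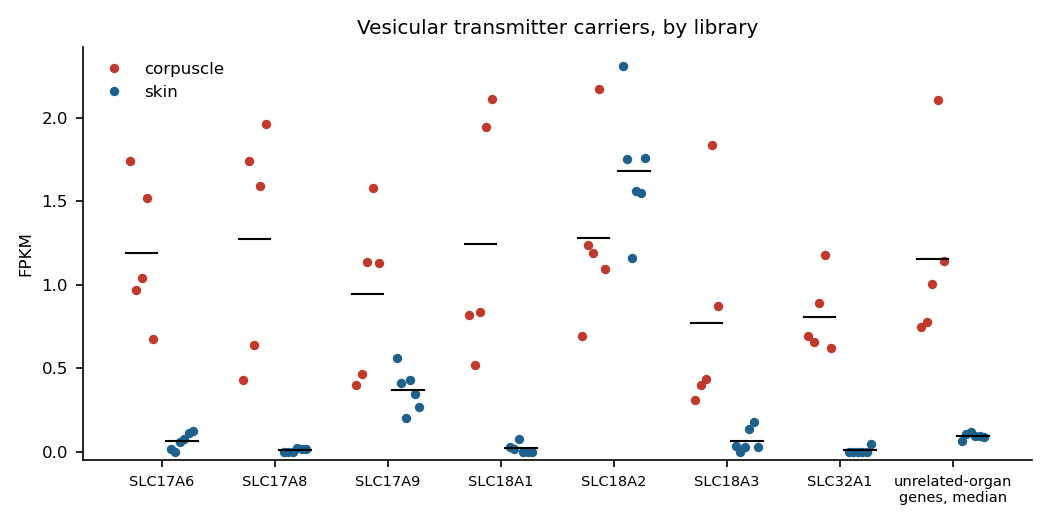
FPKM of 7 vesicular transmitter carriers in each corpuscle (red, n = 5) and skin (blue, n = 6) library, with the median of the 52 unrelated genes per library at the right; black lines are means. SLC17A6, SLC17A8, SLC18A1, SLC18A3 and SLC32A1 average 0.772 to 1.28 FPKM in corpuscles and at most 0.0669 FPKM in skin, while SLC18A2 overlaps between the tissues.

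Carriers that clear transmitters moved both ways. Per length SLC1A1, the glutamate carrier of neuronal cell bodies, was the most abundant glutamate carrier in corpuscles. It averaged 4.93 FPKM there, against 0.696 FPKM for SLC1A2, while in CPM these 2 averaged 8.70 and 8.79. By library SLC1A1 was at 12.1, 11.4, 13.6, 4.44 and 1.98 CPM in corpuscles, against 0.0662, 0.362 and 0.607 CPM (lowest, median, highest) in skin. The tissues did not overlap (log2 fold change 4.68 ± 0.60, adjusted p = 1.2e-05), and corpuscles 1 to 3 were above corpuscles 4 and 5. The summed level of 12 neuron and axon markers, of which 7 rose and 1 fell, had the same order of these subsets. It was 1023, 1109, 1689, 557 and 391 CPM in corpuscles 1 to 5 and 106 to 139 CPM in skin. Its part in the SLC1A1 result was not tested. Most of that sum in corpuscles was UCHL1, which averaged 672 CPM (corpuscles) and 49.5 CPM (skin). SLC1A2, the main glutamate carrier of astrocytes, was lower, at 9.94, 3.39, 7.98, 13.5 and 9.19 CPM in corpuscles and 18.8, 26.1 and 33.6 CPM in skin (-1.56 ± 0.36, adjusted p = 0.00183). Per length it lay under the median of unrelated genes in corpuscles (1.32 FPKM). In skin, at 2.16 FPKM, it lay under their 95th percentile (2.80 FPKM). Among corpuscle 4, corpuscle 5, skin 5 and skin 6 alone, a split made after the data were seen, SLC1A2 did not pass (-1.20, adjusted p = 0.102). That fit had 2 libraries per tissue and called 5290 of 15418 genes tested, against 8263 of 14638 with all libraries. A call lost among these libraries, here or below, thus does not show that a difference is absent. SLC1A3, the other glial glutamate carrier, did not pass, averaging 7.40 ± 2.75 CPM in corpuscles, against 6.01 ± 2.12 CPM in skin (SD). SLC1A7, a glutamate carrier of the retina, was at 3.46, 0.942, 1.85, 5.07 and 7.12 CPM in corpuscles and at most 0.488 CPM in skin. Its log2 fold change was 4.53 ± 0.81 (adjusted p = 0.000227) and 5.28 without skin 1. Per length SLC1A7 lay under the median of unrelated genes in corpuscles, at 1.16 FPKM.

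The amine carriers of the plasma membrane fell in corpuscles. SLC6A2, which takes up noradrenaline, was at 83.2, 20.9, 20.5, 113 and 104 CPM in corpuscles and 113, 172 and 220.3 CPM (lowest, median, highest) in skin. Its log2 fold change was -1.28 ± 0.42 (adjusted p = 0.0179), and corpuscle 4 lay just below the lowest skin library. The call was lost with a minimum of 5 CPM (adjusted p = 0.0755), after subtraction of the level of unrelated genes (adjusted p = 0.12) and among the 4 libraries corpuscle 4, corpuscle 5, skin 5 and skin 6 alone (-0.85, adjusted p = 0.087). The summed level of 10 fibroblast markers, of which 7 fell and 0 rose, was 26944, 15637, 13999.7, 45618 and 41735 CPM in corpuscles 1 to 5 and 49939.6 to 81442 CPM in skin. Corpuscles 2 and 3 were lowest in both SLC6A2 and that sum, and its part in the result was not tested. SLC6A4, which takes up serotonin, was at 7.72, 2.64, 2.78, 11.9 and 3.96 CPM in corpuscles and 12.1, 19.1 and 25.2 CPM in skin, without overlap (-1.73 ± 0.44, adjusted p = 0.00363). Among those 4 libraries alone its value was -0.82 and did not pass (adjusted p = 0.342).

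GABA and glycine carriers were low in both tissues. The GABA carriers SLC6A11 (1.71, with overlap) and SLC6A13 (2.30) and the betaine and GABA carrier SLC6A12 (2.79) were called higher, at 0.998 to 1.70 FPKM in corpuscles. These levels lay under the 95th percentile of unrelated genes in corpuscles. After subtraction of the level of unrelated genes SLC6A11 (0.43) and SLC6A12 (2.25) did not pass, and SLC6A13 no longer passed the filter. SLC6A11 missed the threshold with those 4 libraries left out (0.88, adjusted p = 0.178). SLC6A5, the glycine carrier of inhibitory neurons, was at 13.1, 12.7, 19.0, 24.3 and 4.14 CPM in corpuscles, against 13 reads over all skin libraries. Its log2 fold change of 6.66 ± 0.77 (adjusted p = 5.02e-06) was 7.70 without skin 6. Per length SLC6A5 lay under the 95th percentile of unrelated genes in corpuscles, at 2.13 FPKM. SLC6A9, the glial glycine carrier, averaged 14.8 ± 3.77 CPM (SD) in corpuscles, against 14.2 ± 5.39 CPM in skin, and did not pass (adjusted p = 0.876).

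Among amino acid carriers SLC6A14 rose and SLC1A4 fell. SLC6A14 was at 114, 200.4, 144, 37.1 and 123 CPM in corpuscles 1 to 5, against 4.47, 5.28 and 6.80 CPM (lowest, median, highest) in skin. Every corpuscle library lay above every skin library, the lowest being corpuscle 4, with a log2 fold change of 4.52 ± 0.37 (adjusted p = 3.43e-07). SLC1A4, an exchanger of alanine, serine and cysteine, was at 35.9, 99.5, 59.1, 40.7 and 63.0 CPM in corpuscles, against 152, 236 and 285 CPM in skin. The tissues did not overlap (-1.97 ± 0.28, adjusted p = 2.86e-05).

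The other amino acid carriers of family SLC6 lay at 2.11 FPKM or less in corpuscles. SLC6A7, a proline carrier of the brain, was at 1.86, 2.45, 2.69, 4.92 and 2.25 CPM in corpuscles and had 0 reads in skin. Against 3 reads over the skin group it was at least 84.6-fold higher (adjusted p = 8.49e-06). Per length SLC6A7 lay under the median of unrelated genes in corpuscles, at 1.15 FPKM. The proline carrier SLC6A20 was called higher (2.99), and SLC6A17, a neutral amino acid carrier of synaptic vesicles, did not pass (-0.34). SLC6A15, a neutral amino acid carrier of neurons, was lower (-1.37 ± 0.53, adjusted p = 0.0389), with overlap. Its call was lost without any of 7 single libraries (corpuscles 1, 2 and 3 and skin 1, 3, 4 and 6; -1.40 to -0.94, adjusted p from 0.0533 to 0.131) and among those 4 libraries alone (-0.11, adjusted p = 0.886). SLC6A19, a carrier of gut and kidney, was not tested; it had 1 read in skin, and the pooled ratio was 217 with a counting interval of 38.2 to 8653.

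**Figure D4:**
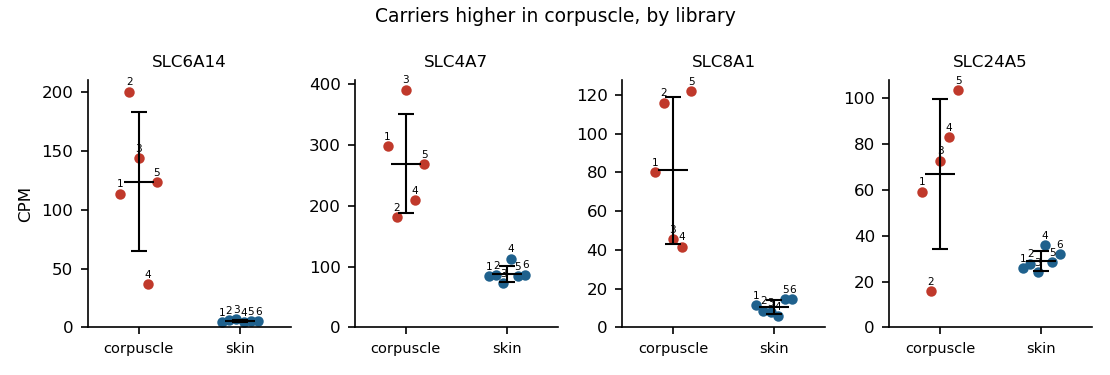
CPM by library of the 4 carriers that kept their call as higher after subtraction of the level of unrelated genes; points are libraries with their replicate numbers, bars are mean and SD (corpuscle n = 5, skin n = 6). SLC6A14, SLC4A7 and SLC8A1 do not overlap between the tissues; SLC24A5 does, through corpuscle 2 at 15.7 CPM.

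The creatine carrier SLC6A8 had the lowest log2 fold change of the 56 carriers tested, and was singled out after its values were seen. It was at 4.53, 3.39, 3.71, 8.24 and 4.05 CPM in corpuscles, against 55.9, 72.0 and 95.1 CPM (lowest, median, highest) in skin. The tissues did not overlap (-3.95 ± 0.33, adjusted p = 3.84e-07). The taurine carrier SLC6A6 was at 379.7, 196, 453, 80.1 and 105 CPM in corpuscles and at 300.4, 398 and 466 CPM in skin. Corpuscles 1 and 3 were in the range of skin and corpuscles 2, 4 and 5 below it, and the difference did not pass (-0.70 ± 0.37, adjusted p = 0.121). With corpuscle 3 left out it passed (-1.06, adjusted p = 0.0235), as it did among those 4 libraries alone (-2.08, adjusted p = 0.0187).

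Chloride cotransporters that are abundant in skin fell in corpuscles. SLC12A2, which brings chloride into cells, was at 14.8, 30.0, 47.8, 17.3 and 20.6 CPM in corpuscles 1 to 5, against 136, 158 and 190.5 CPM (lowest, median, highest) in skin. Its log2 fold change was -2.60 ± 0.31 (adjusted p = 6.33e-06), without overlap. SLC12A4, a widely expressed cotransporter that lets potassium and chloride out, was at 94.3, 36.8, 57.0, 11.9 and 105 CPM in corpuscles and 116, 138 and 154 CPM in skin. It fell by 1.15 ± 0.40 on the log2 scale (adjusted p = 0.0233) but did not pass without corpuscle 2 (-1.02, adjusted p = 0.0553), with a minimum of 5 CPM (adjusted p = 0.0743), after subtraction of the level of unrelated genes (adjusted p = 0.24) or among those 4 libraries alone (-0.84, adjusted p = 0.585).

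The chloride carriers known from nerve and kidney were called higher at low levels. SLC12A5, the potassium-chloride cotransporter of neurons, was at 4.53, 9.51, 7.98, 19.5 and 9.01 CPM in corpuscles and 1.63, 2.31 and 3.98 CPM in skin (2.02 ± 0.43, adjusted p = 0.000907). After subtraction of the level of unrelated genes its log2 fold change was -1.23 and did not pass (adjusted p = 0.474). SLC12A1, the chloride carrier of the kidney's thick ascending limb, was at 3.64, 2.45, 6.12, 10.1 and 8.38 CPM in corpuscles and at most 0.315 CPM in skin (4.93 ± 0.55, adjusted p = 3.77e-06). Per length both lay under the median of unrelated genes in corpuscles, SLC12A5 at 1.13 and SLC12A1 at 1.18 FPKM. SLC12A9 was lower (-0.88, adjusted p = 0.0314), but not without any of 7 single libraries (corpuscles 3 and 5 and skin 1, 2, 3, 5 and 6; -0.90 to -0.75, adjusted p from 0.0506 to 0.068). SLC12A8 did not pass (0.17, adjusted p = 0.767).

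**Figure D5:**
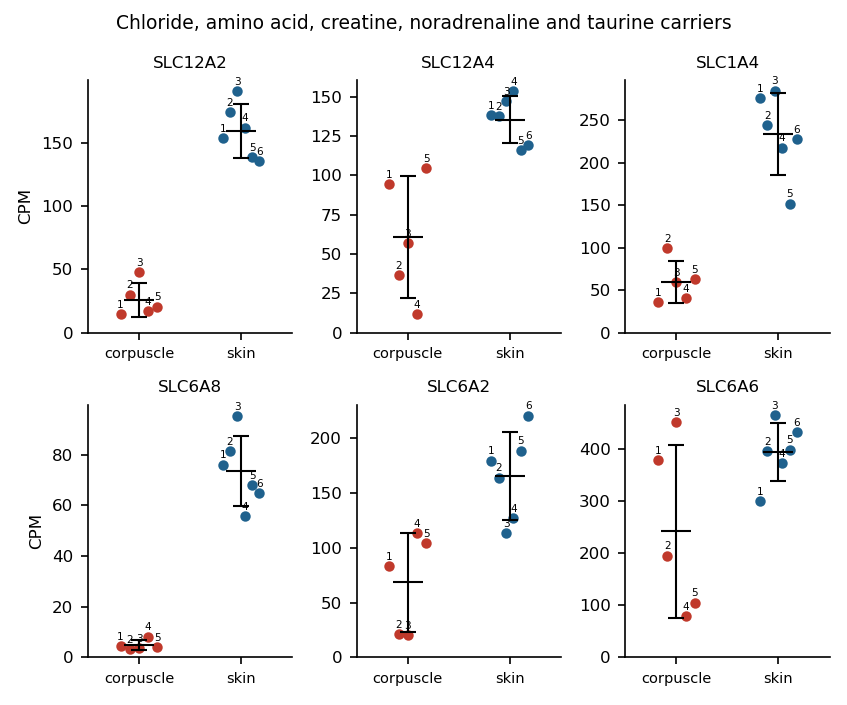
CPM by library of SLC12A2, SLC12A4, SLC1A4, SLC6A8, SLC6A2 and SLC6A6; points are libraries with their replicate numbers, bars are mean and SD (corpuscle n = 5, skin n = 6). The first 5 lie lower in every corpuscle library than in any skin library, and SLC6A6 overlaps through corpuscles 1 and 3.

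Bicarbonate carriers moved both ways. SLC4A7, an electroneutral sodium-bicarbonate cotransporter that loads bicarbonate, was at 298, 181, 391, 209.6 and 269 CPM in corpuscles, against 72.6, 85.3 and 113 CPM (lowest, median, highest) in skin. All corpuscle libraries lay above all skin libraries (log2 fold change 1.62 ± 0.22, adjusted p = 2e-05). SLC4A4, the electrogenic sodium-bicarbonate cotransporter, was at 8.79, 22.1, 16.9, 17.8 and 14.6 CPM in corpuscles and 44.2, 58.8 and 87.4 CPM in skin (-1.92 ± 0.31, adjusted p = 9.53e-05). SLC4A2, a chloride-bicarbonate exchanger of most cells, was at 6.57, 10.3, 13.7, 20.8 and 14.3 CPM in corpuscles and 32.4, 37.9 and 46.0 CPM in skin (-1.55 ± 0.32, adjusted p = 0.000784). Among those 4 libraries alone neither passed (SLC4A4 -1.41, adjusted p = 0.0604; SLC4A2 -1.01, adjusted p = 0.139).

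Of the remaining SLC4 members 2 were called higher, 2 lower and 2 not called. SLC4A9, an exchanger of the kidney, was at 3.73, 12.9, 6.31, 18.1 and 7.39 CPM in corpuscles and at most 0.45 CPM in skin. Its log2 fold change was 5.72 ± 0.71 (adjusted p = 9.01e-06) and 6.37 without skin 2. Per length SLC4A9 lay under the 95th percentile of unrelated genes in corpuscles, at 2.31 FPKM. SLC4A5, a sodium-bicarbonate cotransporter, was called higher (1.34 ± 0.34, adjusted p = 0.0033), but after subtraction of the level of unrelated genes it did not pass (adjusted p = 0.996). SLC4A11 was lower (-1.84 ± 0.44, adjusted p = 0.00218), but not after subtraction (adjusted p = 0.12) or among those 4 libraries alone (-1.32, adjusted p = 0.116). SLC4A10, a sodium-bicarbonate carrier of neurons, was lower with overlap (-1.17 ± 0.42, adjusted p = 0.0268). That call was lost without corpuscle 2, skin 2, skin 3 or skin 4 (-1.11 to -1.01, adjusted p from 0.0516 to 0.0663), after subtraction (adjusted p = 0.11) and among those 4 libraries alone (-0.18, adjusted p = 0.779). SLC4A8 (-0.83, adjusted p = 0.0763) and SLC4A3 (0.10, adjusted p = 0.823) did not pass; SLC4A8 did without corpuscle 1 or corpuscle 2 (-1.22 to -0.99, adjusted p from 0.0103 to 0.0459).

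Of the 9 sodium-proton exchangers tested 4 were called higher, beside 33.0% of all genes, and some others of the family are not reported here. After subtraction of the level of unrelated genes SLC9A8 was tested and lost its call. SLC9A2, SLC9A3 and SLC9A4 then no longer passed the filter, so their calls could not be kept. SLC9A8, an exchanger of the Golgi, was at 60.6, 14.7, 46.4, 15.5 and 17.7 CPM in corpuscles and 12.8, 14.8 and 17.4 CPM (lowest, median, highest) in skin. Corpuscles 1 and 3 stood above skin and the others near it (1.06 ± 0.40, adjusted p = 0.0326). Without any of 7 single libraries (corpuscles 1 and 3 and skin 1, 2, 3, 5 and 6) its call was lost (0.64 to 1.08, adjusted p from 0.0533 to 0.148), as it was among those 4 libraries alone (0.28, adjusted p = 0.67).

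SLC9A9, an endosomal exchanger, was at 25.9, 61.7, 80.4, 8.40 and 37.3 CPM in corpuscles and 20.2, 30.9 and 38.1 CPM in skin. It did not pass (0.52 ± 0.43, adjusted p = 0.317) except without corpuscle 4 (0.78, adjusted p = 0.0404). SLC9A4, of the stomach, was at 5.59, 2.92, 2.69, 11.4 and 7.84 CPM in corpuscles and at most 0.586 CPM in skin (4.70 ± 0.72). SLC9A2, of epithelia, was at 1.51, 1.51, 2.04, 7.61 and 3.42 CPM in corpuscles and at most 0.499 CPM in skin (4.32 ± 0.79; 5.19 without skin 3). SLC9A3, of gut and kidney, was called higher (3.29), and all 3 lay under 1 FPKM in corpuscles. The brain exchanger SLC9A5 and the Golgi exchanger SLC9A7 did not pass (0.0003 and 0.086 on the log2 scale).

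SLC8A1, the sodium-calcium exchanger best known from heart muscle, rose in corpuscles. It was at 80.2, 116, 45.4, 41.7 and 122 CPM in corpuscles 1 to 5, against 5.69, 10.1 and 14.8 CPM (lowest, median, highest) in skin. Corpuscles lay above skin in all libraries (log2 fold change 2.94 ± 0.38, adjusted p = 1.2e-05); among those same 4 libraries alone the value was 2.61 and missed the threshold (adjusted p = 0.0536). SLC8A3, of nerve and skeletal muscle, was at 5.59, 8.48, 2.60, 8.09 and 3.87 CPM in corpuscles and 2.12, 2.72 and 5.99 CPM in skin, with overlap, and did not pass (0.68 ± 0.43, adjusted p = 0.188).

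Among potassium-dependent sodium-calcium exchangers only SLC24A5 was called, of 3 tested. SLC24A5 was at 59.1, 15.7, 72.7, 82.8 and 103 CPM in corpuscles and 24.2, 28.1 and 36.0 CPM in skin. Corpuscle 2 lay below skin and the other 4 corpuscles above it (log2 fold change 1.20 ± 0.37, adjusted p = 0.0112). Its call was lost with limma-voom (adjusted p = 0.0567) and when those 4 libraries were left out (0.78, adjusted p = 0.169). The summed level of 5 melanocyte markers was 61.0, 12.2, 59.9, 144 and 95.3 CPM in corpuscles 1 to 5, again lowest in corpuscle 2, and 32.5 to 45.4 CPM in skin. Most of that sum was the transcription factor MITF, which averaged 63.7 CPM (corpuscles) against 37.1 CPM (skin). The pigment enzyme TYR averaged 1.20 CPM (corpuscles) against 0.0305 CPM (skin). TYR was not tested, and its 0.576 FPKM in corpuscles lay under the median of unrelated genes (1.32 FPKM). Only 2 of the 5 markers were tested, of which 1 was called higher. The part of that sum in the SLC24A5 result was not tested. SLC24A2, of cones and brain, was at 18.6, 16.2, 2.50, 18.9 and 23.1 CPM in corpuscles and 5.44, 11.4 and 13.9 CPM in skin and did not pass (0.55 ± 0.45, adjusted p = 0.316), though it did without corpuscle 3 (0.82, adjusted p = 0.0438). SLC24A4, of olfactory neurons and enamel, did not pass (-0.05, adjusted p = 0.928), although it was called lower after subtraction of the level of unrelated genes, and SLC24A1, of rods, was not tested (0.266 to 4.60 CPM in corpuscles, at most 0.25 CPM in skin).

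Enzymes and kinases that work with these carriers gave 17 higher and 6 lower of 38 tested, beside the 33.0% and 23.5% of all genes. Glutamate metabolism held 3 higher of 5, among them glutamate dehydrogenase GLUD1, at 1425, 1222, 1599, 3520.5 and 2603 CPM in corpuscles and 231, 329 and 383 CPM (lowest, median, highest) in skin (log2 fold change 2.72 ± 0.27, adjusted p = 1.57e-06). In creatine metabolism 3 of 4 rose. The mitochondrial creatine kinase CKMT2 was at 92.4, 227, 348, 185 and 161 CPM in corpuscles and 6.35, 20.3 and 25.4 CPM in skin (3.44 ± 0.39, adjusted p = 4.41e-06), while the uptake carrier SLC6A8 fell. The enzymes of transmitter synthesis that follow were at the level of unrelated genes. Tyrosine hydroxylase TH was at 1.18 FPKM in corpuscles and 0.0173 FPKM in skin (5.81). DBH, which makes noradrenaline, was at 1.08 FPKM in corpuscles and 0.038 FPKM in skin (4.77), and GAD2, which makes GABA, at 1.16 FPKM in corpuscles and 0.0859 FPKM in skin (3.81). Of the other synthesis enzymes TPH2 was called higher (2.68, adjusted p = 0.000161), at 0.800 FPKM in corpuscles and 0.130 FPKM in skin. GAD1 (0.58, adjusted p = 0.377), DDC (1.41, adjusted p = 0.0635) and HDC (-0.25, adjusted p = 0.7) did not pass, and PNMT and CHAT were not tested. The carbonic anhydrase CA7 was at 0.753 FPKM in corpuscles and 0.015 FPKM in skin (5.50). In skin TH, DBH, GAD2, TPH2 and CA7 averaged under 1 CPM, so they passed the filter only through their level in corpuscles. The count of 17 called higher thus partly follows from the filter. For these genes the p-values are no independent support for a rise. Others called higher included the kinase STK39 (1.96), SHMT1 (2.17) and SHMT2 (1.43) of glycine metabolism, and the exchanger partners TESC (2.19) and SLC9A3R1 (1.98). Of the 17 called higher, 11 lay above the 95th percentile of unrelated genes in corpuscles. The 6 called lower were GLDC (-2.31) and AMT (-1.06), which break down glycine, GCH1 (-2.26), which makes the cofactor of amine synthesis, the kinase WNK2 (-1.97), ALDH5A1 (-1.48), which breaks down GABA, and the exchanger scaffold SLC9A3R2 (-1.17).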

How the data were processed

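The deposited table of the whole series held, per gene and library, whole-number counts made by the authors, their normalized signal and their FPKM, with the log2 fold changes and p-values of the authors' own comparison. The submitters' processing notes list STAR 2.7.7a, Subread 2.0.1 with featureCounts, Trimmomatic 0.39, CASAVA 1.8.2, R 4.2.1 and edgeR 3.38.4; genome build, annotation and strand are not given in the sources used here, so no coordinates are printed, and reads shared by near-identical carriers or by antisense genes cannot be told apart. The authors' signal and FPKM columns served for levels per length, and the deposited counts for tests.

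Here edgeR 4.0.16 (R 4.3.3) fitted all 11 libraries without covariates: filterByExpr, TMM factors, a robust quasi-likelihood test of corpuscle against skin and Benjamini-Hochberg adjustment over all 14638 genes tested, at 0.05. DESeq2 1.42.0 and limma 3.58.1 (voom) were alternatives, and the fit was tested on simulated data. The 3-count floor was 0.143 to 0.520 CPM per library. Replicate libraries of a tissue differed by more than counting noise (chi-square per degree of freedom at least 12.1), so none was merged. Values by library are given, in each family, for the 2 members with the highest FPKM and up to 2 called members with the largest fold change, no overlap and at least 1 CPM, and for a few others. Members and gene lists were chosen with earlier results of these data known. RefSeq names 3 further locus identifiers as such carriers; they fall outside the name rule and were not analysed here. Some carriers enter the counts but are not reported here one by one.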

Additional observations from a re-analysis of the deposited data

Results flagged for a closer look

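Of 56 sets of libraries checked (28 carriers in each tissue), 5 held a single library far from the others of its tissue; chance gives about 1 in 20. In corpuscle 4 SLC6A7 was at 4.92 CPM, against 1.86 to 2.69 CPM in corpuscles 1, 2, 3 and 5. In skin 4 SLC4A7 was at 113 CPM, against 72.6 to 86.9 CPM in the other skin libraries. In skin 6 SLC6A5 was at 0.521 CPM (at most 0.132 CPM in the others) and SLC32A1 at 0.13 CPM (0 in the others). In skin 3 SLC18A1 was at 0.187 CPM, against at most 0.0697 CPM in the others. The skin values of SLC6A5, SLC18A1 and SLC32A1 rest on 8, 3 and 2 reads.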

How the results depend on the processing

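With other scalings, DESeq2, limma-voom, no filter, thinning, a replicate block or the 20 most abundant genes left out, 19 to 28 carriers were called higher and 12 to 17 lower. Upper-quartile scaling moved the median of all genes from 0.18 to 0.33, no filter to 0.34, limma-voom to -0.05 and the block to -0.04. Leaving out 1 library gave 24 to 27 higher and 12 to 16 lower carriers, a median log2 fold change of 0.26 to 0.64, and 15 to 19 higher and 6 to 7 lower partner genes. At least 5 CPM in 5 libraries left 35 carriers tested, 6 higher and 9 lower, with a median of -0.45. Over all 11284 genes tested with that minimum, 3225 were higher and 2486 lower, with a median of 0.11. The share of carriers called higher there lay below that of all genes. Tested against a fold of 2, 7 carriers and 3 partner genes were lower, beside 1460 of all 14638 genes. Within corpuscles 4 and 5 and skin 5 and 6 (added after the data were seen), 6 carriers and 3 partner genes were lower, the carriers' median was 0.79, and 5 of 56 carriers changed sign, among them SLC9A9 (-0.29) and SLC18A2 (0.089). Over all 15418 genes tested there, 3776 were higher and 1514 lower. Subtracting the level of unrelated genes (added after the data were seen) left 4 carriers higher and a median of -1.34; 10 of 41 carriers changed sign: SLC8A3 (-1.34), SLC24A2 (-0.54), SLC12A5, SLC17A9, SLC1A3, SLC4A3, SLC6A9, SLC9A5, SLC9A7 and SLC12A8, of which SLC12A5 and SLC17A9 had been called. The shared replicate numbers did not pair the libraries (correlations of -0.18 to 0.18 over 5 numbers); with the replicate block 22 carriers were higher and 14 lower. The causes of these shifts were not tested. Depth limits carriers under about 0.5 CPM, the 3-count floor of the smallest corpuscle library.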

Other observations

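Within single libraries, pairs of abundant carriers stood in different ratios; these pairs were picked after their values were seen and no test was made. The FPKM ratio of SLC6A14 to SLC1A4 was 2.96 to 10.3 over the corpuscle libraries and 0.0535 to 0.109 over the skin libraries. SLC4A7 to SLC4A4 gave 7.72 to 31.99 in corpuscles and 0.784 to 1.89 in skin. SLC6A6 to SLC6A8 gave 2.80 to 35.2 in corpuscles and 1.14 to 1.92 in skin. SLC12A4 to SLC12A2, the carriers that let chloride out and in, gave 0.947 to 8.75 (median 1.69) in corpuscles and 1.06 to 1.31 (median 1.18) in skin. Corpuscle 4 lay below skin and the other corpuscle libraries above it.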
